A study of Mus musculus with 27 samples.

Results

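Liver RNA-Seq compared chow with a diet high in fat and sucrose (HF/HS) in mice that lack HGFAC, in 7 HGFAC-KO mice fed HF/HS and 6 HGFAC-KO mice fed chow, 13 of the 27 livers of the series. HGFAC is a liver protease of the blood that converts the inactive precursor of hepatocyte growth factor (HGF) into the form that binds its receptor. The knockout was made with CRISPR/Cas9 on the C57BL/6J strain and removes a stretch of *Hgfac* from within exon 1 through exon 2 in every cell of the body, in both diet groups alike. All mice were males that were 8 weeks old when the diets began and were studied after 4 weeks on chow or HF/HS. The authors fed chow from LabDiet and an HF/HS diet from Research Diets, so the groups differ in diet formula and not in fat and sucrose alone. Which part of the diet a difference goes with cannot be told apart here. Their littermate controls, 7 on chow and 7 on HF/HS, serve here to set the diet effect without the deletion beside that with it. The 13 mice were chosen by genotype and diet labels alone, and each library is 1 mouse.

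Hepatocytes are known to answer a diet rich in fat and sugar through a small set of transcription factors. SREBP2 drives cholesterol synthesis when sterol in the endoplasmic reticulum is scarce, ChREBP and SREBP1c drive lipogenesis in response to sugar and insulin, and PPARA drives fatty acid oxidation in response to fatty acids. The nuclear receptors CAR and PXR drive cytochrome P450 genes in response to foreign compounds, and NRF2 drives glutathione and quinone metabolism in response to electrophiles. The comparison asks which of these programs differed between the diets in livers without HGFAC.

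*Hgfac* itself (chromosome 5, 35041509 to 35048461 of GRCm38, plus strand) ranged from 64.8 to 84.0 CPM (counts scaled to library size) on chow and from 81.4 to 101 CPM on HF/HS in HGFAC-KO mice. In controls it ranged from 184 to 221 CPM on chow and from 248 to 295 CPM on HF/HS, scaled separately, so all HGFAC-KO mice lay below all controls. Counts were made per gene, and which exons the remaining reads come from is not known here. Within the HGFAC-KO mice *Hgfac* was higher on HF/HS (log2 fold change 0.29 ± 0.08 SE, adjusted p = 0.0382, edgeR), a call that was lost in 10 of 23 alternative analyses, with an adjusted p of 0.0896 without KO chow 2.

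Total counts per HGFAC-KO library ran from 41028710 to 57298657. One library, KO chow 1, stood apart. It scored 41.7 on the second principal component (17.3% of variance), where the other 12 mice lay between -15.6 and 13.1, and its median rank correlation with the other chow mice was 0.985, against 0.990 to 0.994 for the other libraries with their own groups. The first component (23.9%) separated the diets, with the 6 chow mice at -8.38 or below and the 7 HF/HS mice at 7.76 or above. Hepatocyte markers were all present (18 of 18 tested). Of 7 adipocyte and 12 pancreatic acinar markers, 2 each passed the filter on low counts, and their lists summed to at most 27.6 and 12.9 CPM in a mouse. In bulk liver, fewer cells of a type and less RNA per cell cannot be told apart.

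**Figure D1:**
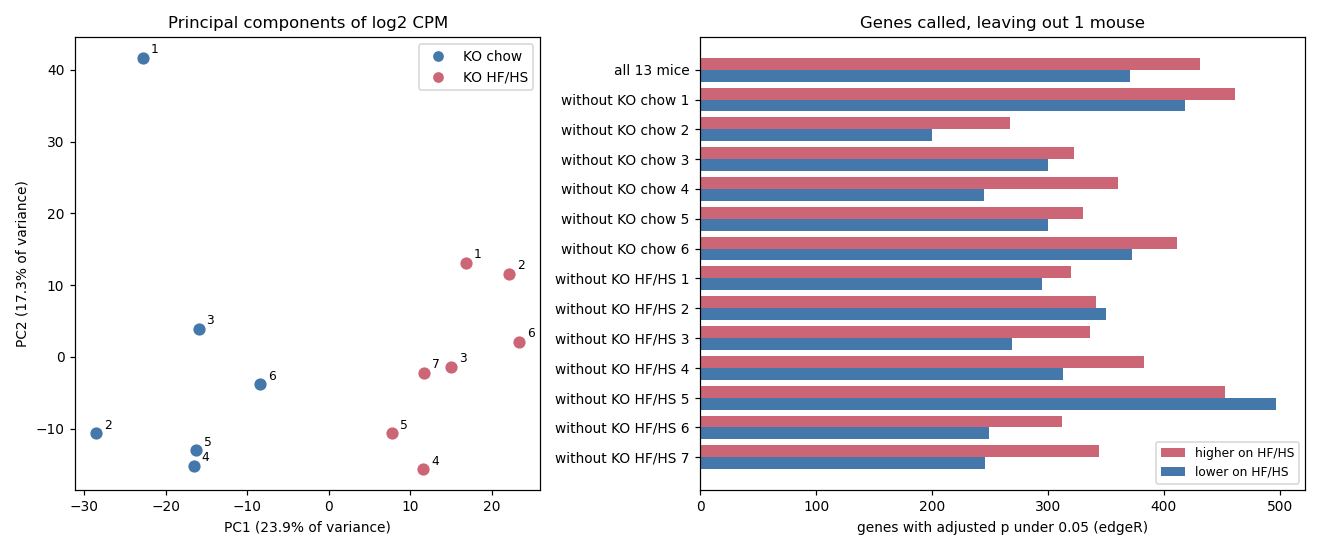
Left, the 13 HGFAC-KO livers on the first 2 principal components of log2 CPM, with the mouse number beside each point. Right, the numbers of genes higher and lower on HF/HS at an adjusted p under 0.05 (edgeR) with all mice and after leaving out each mouse in turn. The diets part along the horizontal axis, KO chow 1 lies alone at 41.7 on the vertical axis, and the counts are lowest without KO chow 2 (267 higher and 200 lower).

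HF/HS feeding changed 802 of 13613 genes tested in HGFAC-KO liver (5.89%; edgeR quasi-likelihood test, adjusted p under 0.05). Of these, 431 (3.17% of genes tested) were higher on HF/HS and 371 (2.73%) were lower. Most changes were modest in size. The median rise was 1.504-fold and the median fall 1.34-fold, and 56 of the higher and 63 of the lower genes changed by 2-fold or more. All 7 HF/HS mice lay above all 6 chow mice for 226 genes (1.66% of those tested) and below them for 194 (1.43%).

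Leaving out KO chow 1 gave 461 higher and 418 lower genes, which held 357 of the 431 and 316 of the 371. Leaving out KO chow 2 gave 267 and 200, and the lower genes numbered 245 without KO chow 4 and 246 without KO HF/HS 7. No called gene changed direction in any of these. The labels do not say which mice shared a litter or cage, and the p-values measure the spread between these mice.

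The largest falls on HF/HS were in cytochrome P450 genes that CAR and PXR are known to drive. Of 28 genes on this list, which holds *Cyp2b*, *Cyp2c* and *Cyp3a* genes, both receptors and the P450 reductase, 25 were tested. Of these 11 fell and 2 rose, where 2.73% and 3.17% of all genes did, and the median log2 fold change was -0.60 against 0.00 over all genes. Without KO chow 1 the counts were 12 and 2. Among the 20 members with at least 10 counts in every library, 6 fell and 2 rose, with a median of -0.26. List scores, the mean log2 CPM of the tested members in a mouse, ran from 4.61 to 5.57 on chow and from 3.74 to 4.15 on HF/HS, without overlap.

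*Cyp3a11*, the major CYP3A enzyme of mouse liver, had the smallest p of all genes. Its lowest, median and highest levels were 4167, 5154 and 6658 CPM on chow and 488, 591 and 957 CPM on HF/HS. The groups were far apart, the highest HF/HS mouse (KO HF/HS 5) lying well below the lowest chow mouse (KO chow 6). The log2 fold change was -3.06 ± 0.16 SE (adjusted p = 5e-08, edgeR), and an exact two-sided permutation test gave p = 0.000583, the smallest that the 1716 splits of the mice allow.

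*Cyp2b10*, the classical CAR target, was nearly absent on HF/HS. Chow libraries held 84 to 799 counts each, whereas the 7 HF/HS libraries held 0 to 2 counts each and 4 in all. Pooled over each group this was 8.54 against 0.0124 CPM, a 690-fold difference with a 95% exact interval of 269 to 2533 that covers counting error only. *Cyp2c55* was 2.81 to 6.41 CPM on chow and 0.474 to 0.876 CPM on HF/HS, again without overlap (log2 fold change -2.50 ± 0.20). *Cyp2c29*, named after its values were seen, fell by 1.59 ± 0.17 on the log2 scale.

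Of the 8 *Cyp3a* genes tested on the list, 7 fell, and *Cyp3a13* did not pass the threshold (-0.21, adjusted p = 0.277, edgeR; named after its value was seen). *Cyp3a59* went from a median of 34.9 to 5.08 CPM (log2 fold change -2.76 ± 0.20, adjusted p = 4.33e-06, edgeR). *Cyp3a41a* was low on either diet, 0.783 to 1.53 CPM on chow and 0.0212 to 0.127 CPM on HF/HS (-3.87 ± 0.27), and *Cyp3a41b* ranged from 0.353 to 6.37 CPM on chow and from 0 to 0.496 CPM on HF/HS, with overlap (-4.12 ± 0.80). *Cyp3a16*, *Cyp3a44* and *Cyp3a25*, named after their values were seen, had log2 fold changes of -2.94, -2.70 and -1.30. The *Cyp3a* genes are similar copies, and how the authors' counting divided shared reads among them is not known here.

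*Por*, the reductase that passes electrons to microsomal P450 enzymes (named, like both receptors, after its values were seen), was 304 to 346 CPM on chow and 158 to 260 CPM on HF/HS (log2 fold change -0.67 ± 0.10). The receptors did not pass the threshold. *Nr1i3* (CAR) had a log2 fold change of -0.30 ± 0.17 (adjusted p = 0.318) and *Nr1i2* (PXR) one of 0.06 ± 0.13 (adjusted p = 0.833, both edgeR). Both members that rose were *Cyp2c* genes: *Cyp2c69* went from a median of 1.28 to 3.13 CPM (1.503 ± 0.34) and *Cyp2c67* had a log2 fold change of 0.46 ± 0.10.

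Outside that list, *Cyp2a5*, a coumarin hydroxylase, went from 175 to 619 CPM on chow to 23.0 to 112 CPM on HF/HS (log2 fold change -2.55 ± 0.38). Its near copy *Cyp2a4* was also called (-5.64 ± 1.41, adjusted p = 0.0347, edgeR), and here 1 mouse set the size. KO chow 1 held 30.9 CPM, the other chow mice 0.390 to 0.832 CPM and the HF/HS mice 0.0237 to 0.189 CPM. Without KO chow 1 the log2 fold change of *Cyp2a4* was -2.22 (adjusted p = 0.00303, edgeR), and its call was lost in 10 of 21 alternative analyses.

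Conjugating enzymes fell alongside the P450 genes. Of 45 phase II and NRF2 target genes, all tested, 20 fell and 1 rose (2.73% and 3.17% of all genes), with a median log2 fold change of -0.36. In 17 of the 45 all HF/HS mice lay below all chow mice, as in 1.43% of all genes. Without KO chow 1 the counts were 19 and 0. List scores ran from 6.07 to 6.27 on chow and from 5.54 to 5.72 on HF/HS.

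Glutathione S-transferases, which join glutathione to reactive compounds, led the list. *Gstm1* was 946, 1177 and 1744 CPM (lowest, median and highest) on chow and 309, 449 and 504 CPM on HF/HS (log2 fold change -1.55 ± 0.14, adjusted p = 2.51e-05, edgeR). The groups did not overlap, and KO chow 1 was the highest mouse. *Gstm3* fell from a median of 53.6 to 9.82 CPM (-2.46 ± 0.24) and *Gsta2* from 10.3 to 2.44 CPM (-2.32 ± 0.29). KO chow 1 was also highest for these, and without it their log2 fold changes were -2.25 and -1.97. The *Gsta* and *Gstm* families also hold similar copies.

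*Ugdh*, which makes the UDP-glucuronate used by glucuronosyltransferases, was 169 to 261 CPM on chow and 96.8 to 121 CPM on HF/HS (log2 fold change -0.90 ± 0.09). *Ugt2b35*, a glucuronosyltransferase, was 219 to 280 CPM on chow and 150 to 174 CPM on HF/HS (-0.68 ± 0.06). *Nqo1*, the NRF2-driven quinone reductase (named after its values were seen), was 4.76 to 9.15 CPM on chow and 2.37 to 3.54 CPM on HF/HS (-1.21 ± 0.14). The diet groups did not overlap for any of these 3 genes.

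Carriers of bile acids and conjugates included large falls. Among 27 tested genes of bile acid synthesis and transport, 3 fell and 1 rose (2.73% and 3.17% of all genes), with a median log2 fold change of -0.04. *Slco1a4*, a sinusoidal uptake carrier, was 78.6, 105 and 145 CPM on chow and 10.7, 17.2 and 36.2 CPM on HF/HS (-2.37 ± 0.27, adjusted p = 0.000331, edgeR). *Abcc3*, an export pump for conjugates, was 352 to 542 CPM on chow and 104 to 262 CPM on HF/HS (-1.48 ± 0.16). *Abcc4*, a related pump, was 2.82 to 7.93 CPM on chow, highest in KO chow 1, and 1.57 to 2.16 CPM on HF/HS (-1.25 ± 0.21, or -0.96 without KO chow 1). None of these 3 overlapped between diets. *Slco1a1* rose by 0.38 ± 0.10 on the log2 scale, a call lost in 9 of 23 alternative analyses, with an adjusted p of 0.0715 without KO chow 4 (edgeR). *Cyp7a1*, the rate-limiting enzyme of bile acid synthesis (named after its values were seen), ranged from 74.9 to 331 CPM on chow and from 106 to 250 CPM on HF/HS (-0.28 ± 0.31, adjusted p = 0.642, edgeR).

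**Figure D2:**
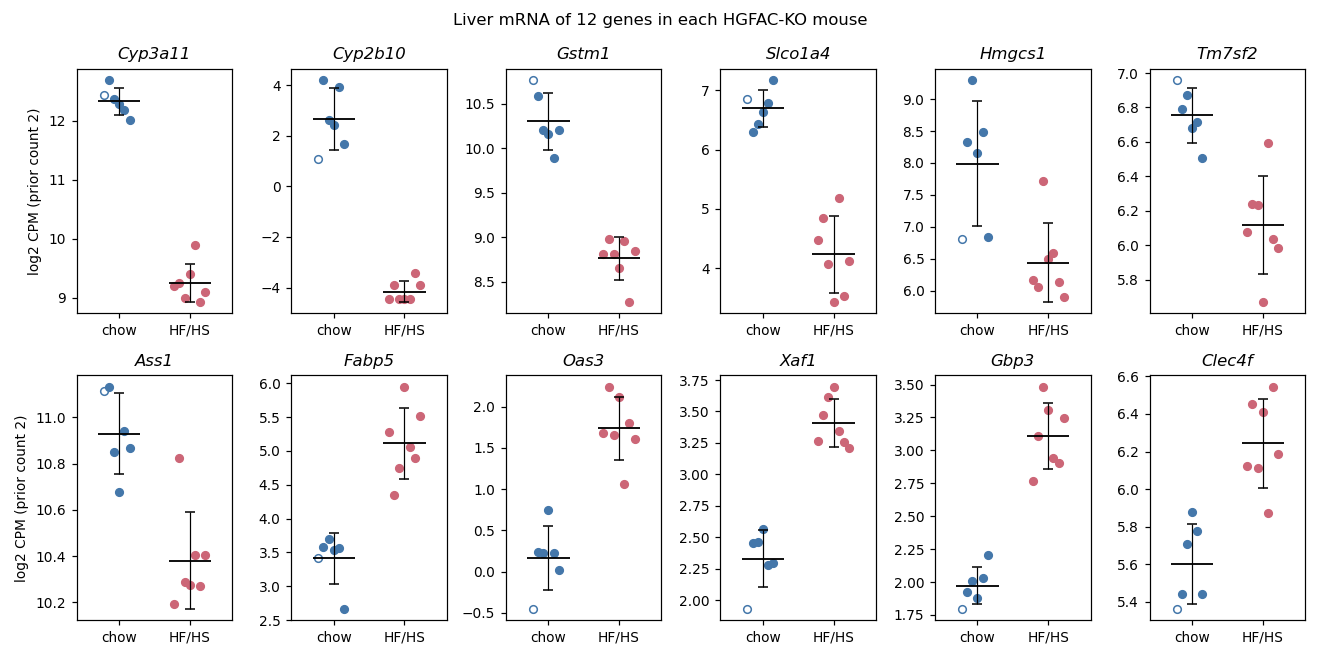
Log2 CPM (prior count 2) of 12 genes in each of the 6 chow-fed and 7 HF/HS-fed HGFAC-KO mice. Points are mice, the open circle is KO chow 1, and bars and whiskers are the mean ± SD. For *Cyp3a11*, *Cyp2b10*, *Gstm1*, *Slco1a4*, *Fabp5*, *Oas3*, *Xaf1* and *Gbp3* no HF/HS mouse lies within the range of the chow mice, while for *Hmgcs1*, *Tm7sf2*, *Ass1* and *Clec4f* the ranges overlap.

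Genes of cholesterol synthesis were lower on HF/HS, with wide spread between mice. All 26 genes of the pathway and other SREBP2 targets were tested, 14 fell and none rose, against 2.73% of all genes that fell. All 26 log2 fold changes were negative, with a median of -1.01. The count depended on single mice. It was 20 without KO chow 1, but between 4 and 9 without any 1 of KO chow 2, 3, 4 and 5 and KO HF/HS 1, 2, 4, 6 and 7, while the median stayed between -1.17 and -0.80 in all alternative analyses. List scores ran from 5.53 to 6.93 on chow and from 4.92 to 6.01 on HF/HS, and KO HF/HS 3, the highest HF/HS mouse, lay within the chow range.

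Members with small p-values changed modestly. *Tm7sf2*, a sterol reductase, was 90.8, 108 and 125 CPM on chow and 50.8, 67.4 and 96.6 CPM on HF/HS (log2 fold change -0.62 ± 0.12, adjusted p = 0.00606, edgeR). *Acat2*, a thiolase that makes acetoacetyl-CoA, went from a median of 21.1 to 16.2 CPM (-0.46 ± 0.10). Both had overlapping groups, and both kept their call in all 23 alternative analyses.

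Other enzymes of the pathway moved further and varied more. *Hmgcs1*, which makes HMG-CoA (named, like the next 3 genes, after its values were seen), was 112, 303 and 633 CPM on chow and 59.7, 71.9 and 212 CPM on HF/HS. KO chow 1 was the lowest chow mouse and KO HF/HS 3 the highest HF/HS mouse. The log2 fold change was -1.68 ± 0.42 (adjusted p = 0.0371, edgeR), a call lost in 11 of 23 alternative analyses. *Sqle*, the squalene epoxidase, went from a median of 106 to 31.6 CPM (-1.58 ± 0.34, adjusted p = 0.0181) and kept its call in all 23.

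*Insig1*, which holds SREBP2 in the endoplasmic reticulum when sterols are plentiful, had a log2 fold change of -1.26 (adjusted p = 0.0991), and *Srebf2*, which encodes SREBP2 itself, one of -0.43 (adjusted p = 0.0785, both edgeR). Neither passed the threshold.

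The promoter of *Hmgcs1* is shown because, of the 10 list genes that fell and have a RefSeq promoter, it alone held the motif searched for. From 250 bases before to 50 bases after its start in RefSeq (chr13:119690101-119690400, GRCm38.p6, plus strand), it holds the letters TCACNCCAC, a form of the sterol regulatory element, once, beginning 137 bases before the start and printed in capitals.
Hmgcs1: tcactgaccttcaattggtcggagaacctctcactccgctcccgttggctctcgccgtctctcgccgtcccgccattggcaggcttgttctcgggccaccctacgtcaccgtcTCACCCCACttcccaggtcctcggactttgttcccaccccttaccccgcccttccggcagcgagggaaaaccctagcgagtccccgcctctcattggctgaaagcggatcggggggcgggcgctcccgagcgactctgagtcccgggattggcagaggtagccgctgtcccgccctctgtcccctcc
Searched on both strands, these letters occur in 1.24% of 32851 promoters of this length. They occur in 1 of the 18 list genes that have a promoter in the table, and in 1 of the 10 such genes that fell. A match is a description of the sequence, not evidence of binding.

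Interferon-stimulated genes rose together. These genes are known to be switched on after interferon binds its receptors, and many encode antiviral proteins. Of 37 genes on this list, 36 were tested, 34 rose and none fell, against 3.17% of all genes that rose, and the median log2 fold change was 0.88. For 28 of the 36, all HF/HS mice lay above all chow mice, as for 1.66% of all genes. List scores were 3.37 to 3.49 on chow and 4.06 to 4.54 on HF/HS. Without KO chow 1, 33 rose, and the count was 32 to 34 in all alternative analyses.

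*Gbp3*, a guanylate-binding protein, was 3.43, 3.86 and 4.57 CPM on chow and 6.77, 8.58 and 11.2 CPM on HF/HS (log2 fold change 1.16 ± 0.12, adjusted p = 6.07e-05, edgeR; exact two-sided permutation p = 0.000583, the smallest possible). *Xaf1*, a proapoptotic interferon target, went from 3.77 to 5.88 CPM on chow to 9.20 to 12.9 CPM on HF/HS (1.08 ± 0.11). *Oasl2*, an oligoadenylate synthetase-like protein, went from 2.93 to 5.09 CPM to 7.41 to 9.31 CPM (1.08 ± 0.11). None of these overlapped between diets.

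The largest rise on the list was that of *Oas3*, an oligoadenylate synthetase, from a median of 1.13 to 3.17 CPM (log2 fold change 1.61 ± 0.21). *Ifi44* rose from 2.54 to 5.52 CPM (1.31 ± 0.14). Near relatives outside the list also rose, *Gbp5* from 0.977 to 2.57 CPM (1.38 ± 0.21) and *Gbp10* from 2.14 to 5.64 CPM (1.33 ± 0.23). The *Gbp*, *Oas1* and *Ifit3* genes have similar copies among which shared reads could be split. *Samhd1*, an antiviral dNTP hydrolase, showed a small and very even rise, from 20.1 to 22.6 CPM on chow to 27.7 to 31.2 CPM on HF/HS (0.48 ± 0.05, adjusted p = 4.63e-05, edgeR).

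*Stat2*, a transcription factor, had a log2 fold change of 0.32 ± 0.06 and *Irf7*, which amplifies the interferon response, one of 0.81 ± 0.09. *Isg15*, a ubiquitin-like modifier, went from 11.5 to 20.5 CPM on chow to 17.9 to 44.5 CPM on HF/HS (1.04 ± 0.19), and *Ifit1*, which binds viral RNA, from 10.5 to 14.6 CPM to 17.9 to 36.9 CPM (1.07 ± 0.16). These 4 genes were named after their values were seen. The 2 members that did not pass the threshold were *Bst2* (0.21, adjusted p = 0.162) and *Ifi27l2b* (-0.04, adjusted p = 0.953, both edgeR).

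The promoters shown, of *Gbp3* and *Oas1a*, were picked in order of p from list genes that rose and whose promoters hold the interferon response element. Its letters are GAAA, any NN and GAAA again. Each promoter holds them as a pair of overlapping matches, printed in capitals. Both genes separated the diets without overlap. *Oas1a* (named after its values were seen) was 1.16 to 1.82 CPM on chow and 2.79 to 4.21 CPM on HF/HS (log2 fold change 1.16 ± 0.14). The *Gbp3* window (chr3:142559794-142560093, GRCm38.p6, plus strand) has its matches on the opposite strand, 45 and 39 bases before the start. The *Oas1a* window (chr5:120907476-120907775, minus strand) has them 20 and 14 bases before the start.
Gbp3: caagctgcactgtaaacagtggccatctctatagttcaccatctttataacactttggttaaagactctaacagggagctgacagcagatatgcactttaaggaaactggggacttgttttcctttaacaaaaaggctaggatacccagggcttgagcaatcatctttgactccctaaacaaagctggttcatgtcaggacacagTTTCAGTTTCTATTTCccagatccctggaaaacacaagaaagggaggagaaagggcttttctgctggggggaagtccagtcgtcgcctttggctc
Oas1a: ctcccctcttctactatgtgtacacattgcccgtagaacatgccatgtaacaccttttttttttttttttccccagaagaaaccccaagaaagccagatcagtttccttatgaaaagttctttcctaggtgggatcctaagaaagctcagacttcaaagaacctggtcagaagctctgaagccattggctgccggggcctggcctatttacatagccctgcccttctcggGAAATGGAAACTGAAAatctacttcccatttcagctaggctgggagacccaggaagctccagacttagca
On either strand these letters occur in 3.44% of 32851 promoters and in the promoters of 3.99% of 27025 genes. Of the 25 list genes with a promoter in the table, 18 held them, among them 17 of the 24 that rose. The list was chosen as interferon targets, so the share describes the list and not the diet.

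Macrophage markers were also higher on HF/HS. Of 25 Kupffer cell and macrophage markers tested, 10 rose (3.17% of all genes) and none fell, with a median log2 fold change of 0.50, and the summed level of the list was 279 to 425 CPM on chow and 415 to 642 CPM on HF/HS. The count was 9 to 11 when 1 mouse was left out, 9 without KO chow 1, and 14 with DESeq2. *Cd68*, a lysosomal macrophage protein, was 4.32, 4.93 and 5.63 CPM on chow and 6.52, 6.73 and 8.22 CPM on HF/HS (log2 fold change 0.51 ± 0.09, adjusted p = 0.00290, edgeR). *C1qa*, a complement subunit made by macrophages, was 21.7 to 33.1 CPM on chow and 35.0 to 41.7 CPM on HF/HS (0.49 ± 0.09). *Clec4f*, a lectin of Kupffer cells, was 41.1 to 58.8 CPM on chow and 58.5 to 93.4 CPM on HF/HS, with KO HF/HS 5 just inside the chow range (0.65 ± 0.11).

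*Adgre1* (F4/80) had a log2 fold change of 0.61 ± 0.15 (adjusted p = 0.0310, edgeR; lost in 11 of 23 alternative analyses), *Cd5l* one of 0.68 ± 0.14 and the monocyte chemokine receptor *Ccr2* one of 1.18 ± 0.26. The resident Kupffer cell genes *Timd4* (0.63, adjusted p = 0.0598), *Vsig4* (0.38, adjusted p = 0.111) and *Marco* (-0.07, adjusted p = 0.900) did not pass the threshold. These 6 genes were named after their values were seen. *Cd4*, the coreceptor of helper T cells and on no list, rose from 0.468 to 1.19 CPM on chow to 1.67 to 3.48 CPM on HF/HS (1.57 ± 0.22). Which cells held its reads is not known here. The T cell gene *Cd3g* (named after its value was seen) had a log2 fold change of -0.02, the lowest of the lymphocyte and neutrophil list.

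Fewer markers of other cell types passed the threshold with all mice included. Of 19 lymphocyte and neutrophil markers tested, 2 rose (3.17% of all genes), *Ptprc* (CD45; log2 fold change 0.63 ± 0.14) and *Cd74*, the class II invariant chain (0.68 ± 0.17; lost in 7 of 23 alternative analyses). KO chow 1 had the highest score of this list among chow mice, and without it 9 of 20 rose, as many as the 9 of 25 macrophage markers that rose without it. Of 22 endothelial markers 2 rose (3.17% of all genes), the sinusoidal genes *Stab2* (0.42 ± 0.09) and *Dnase1l3* (0.38 ± 0.10; lost in 8 of 23). The endothelial count was 1 to 5 when 1 mouse was left out, 3 without KO chow 1 and 5 without KO HF/HS 7. *Krt23* was the 1 cholangiocyte marker of 10 that fell (-0.87 ± 0.24), where 2.73% of all genes fell. Its call was lost in 13 of 23, with an adjusted p of 0.124 without KO chow 2 (edgeR). No stellate cell and extracellular matrix gene of 29 passed the threshold (median 0.32), nor did any of 5 red blood cell markers (median -0.58). Without KO HF/HS 1, 3 of the 5 red blood cell markers fell (median -1.06). In controls 2 of 5 fell (-0.88), where 5.60% of all genes fell. Of 18 hepatocyte markers, *Fgb* rose and *Foxa2* fell (lost in 6 of 23), with a median of -0.01. These shares of 5.56% each lie near those of all genes (3.17% and 2.73%). Macrophage markers and interferon-stimulated genes were both higher in the HF/HS group, and the part of one in the other was not tested. Within that group the highest interferon score was that of KO HF/HS 4 and the highest macrophage score that of KO HF/HS 2.

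**Figure D3:**
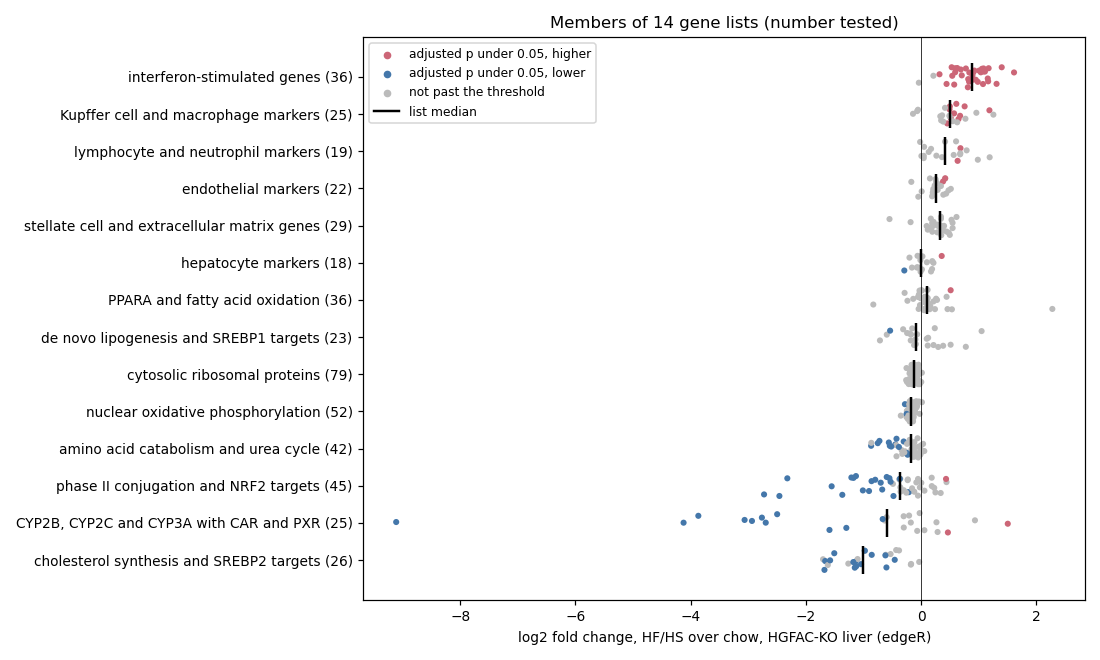
Log2 fold change (HF/HS over chow, edgeR) of each tested member of 14 gene lists in HGFAC-KO liver, with the number tested in brackets. Colored points passed an adjusted p of 0.05, gray points did not, and black lines are list medians. The interferon list lies almost wholly to the right (34 of 36 higher) and the cholesterol list wholly to the left of 0, while lipogenesis, PPARA and hepatocyte lists straddle it.

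Part of amino acid catabolism was lower on HF/HS. Of 42 genes of amino acid catabolism and the urea cycle, all tested, 12 fell and none rose (2.73% of all genes fell), with a median log2 fold change of -0.18 and 38 of 42 values negative. List scores ran from 8.10 to 8.30 on chow and from 7.79 to 8.09 on HF/HS. The count was 11 without KO chow 1 and 7 without KO chow 2. *Tdo2*, the first enzyme of tryptophan breakdown, was 931, 1167 and 1286 CPM on chow and 675, 790 and 956 CPM on HF/HS (-0.52 ± 0.10, adjusted p = 0.00490, edgeR).

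Among urea cycle enzymes, which were not tested against each other, *Asl*, argininosuccinate lyase, was 800 to 894 CPM on chow and 396 to 755 CPM on HF/HS (log2 fold change -0.72 ± 0.14). *Ass1*, argininosuccinate synthase, was 1635 to 2245 CPM on chow and 1171 to 1812 CPM on HF/HS, where KO HF/HS 2 alone lay inside the chow range (-0.54 ± 0.10). *Cps1*, the entry enzyme of the cycle (named after its values were seen), ranged from 2600 to 5079 CPM on chow and from 3070 to 5521 CPM on HF/HS (-0.06 ± 0.17, adjusted p = 0.865, edgeR). *Gls2*, the liver glutaminase that supplies ammonia to the cycle, fell (-0.45 ± 0.10). *Asl*, *Ass1* and *Gls2* were also the 3 of 15 periportal genes that fell, and *Rhbg* (-1.11 ± 0.21) and *Cyp1a2* (-0.81 ± 0.17) were the 2 of 16 pericentral genes that fell, beside 2.73% of all genes.

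Some enzymes around pyruvate and oxaloacetate showed small falls. Of 22 genes of gluconeogenesis and pyruvate fate, 4 fell and none rose (2.73% of all genes fell). Leaving out 1 mouse gave 3 to 6 lower, 6 without KO HF/HS 5, and 0 to 2 higher, 2 without KO HF/HS 4. *Gpt*, alanine aminotransferase, was 325 to 392 CPM on chow and 243 to 301 CPM on HF/HS (log2 fold change -0.41 ± 0.06, adjusted p = 0.00132, edgeR), and *Gpt2* also fell (-0.37 ± 0.08). *Mdh2*, mitochondrial malate dehydrogenase, was 221 to 259 CPM on chow, highest in KO chow 1, and 173 to 202 CPM on HF/HS (-0.27 ± 0.05). *Pdk4*, which inhibits pyruvate dehydrogenase, fell as well (-0.98 ± 0.24; lost in 4 of 23 alternative analyses). *Idh2*, a mitochondrial NADP-dependent isocitrate dehydrogenase that is on no list, had one of the smallest p-values at 113 to 140 CPM on chow and 71.2 to 84.8 CPM on HF/HS (-0.67 ± 0.06, adjusted p = 2.51e-05, edgeR).

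Nuclear genes of oxidative phosphorylation leaned down without passing the test in most cases. Of 52 tested, 51 log2 fold changes were negative with a median of -0.17, and 3 passed the threshold (2.73% of all genes fell): *Ndufv1* (-0.20 ± 0.05), *Cox6a1* (-0.28 ± 0.08) and *Ndufb9* (-0.25 ± 0.07). KO chow 1 was highest for all 3. The count rested on single mice. None passed without any 1 of KO chow 2, 4 and 5 and KO HF/HS 1, 3, 6 and 7, 1 passed without KO chow 1, where the median was -0.14, and 17 passed without KO HF/HS 5. The median stayed between -0.21 and -0.14 when 1 mouse was left out. Cytosolic ribosomal protein genes had a median of -0.12 and none of 79 passed the threshold, and the median was -0.05 without KO chow 1. KO chow 1 held the highest score of both lists among chow mice. The 13 mitochondrially encoded genes had a median of 0.01, and none passed.

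Genes of fatty acid oxidation were called at a share near that of all genes. Of 36 PPARA targets and fatty acid oxidation genes, 1 rose (2.78%, where 3.17% of all genes rose), *Acaa1b*, a peroxisomal thiolase, from a median of 1256 to 1739 CPM (log2 fold change 0.51 ± 0.11), and the list median was 0.10. Without KO chow 1 the median was 0.04, and 2 rose and 1 fell. Without KO HF/HS 2, 4 rose. *Fgf21*, a fasting and diet hormone, had the largest log2 fold change of the list, at 0.243 to 2.25 CPM on chow and 0.854 to 10.96 CPM on HF/HS, but did not pass (2.28 ± 0.66, adjusted p = 0.0596, edgeR; 0.0281 without KO chow 1).

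Of 23 genes of de novo lipogenesis, *Rdh11* alone was called, and it fell (log2 fold change -0.54 ± 0.14; lost in 4 of 23 alternative analyses). That is 4.35% of the list, near the 2.73% of all genes that fell. Without KO chow 1, 1 gene of the list rose and 3 fell. Without KO HF/HS 5, 3 fell. *Fasn*, fatty acid synthase, ranged from 252 to 1091 CPM on chow and from 341 to 666 CPM on HF/HS (-0.12 ± 0.29, adjusted p = 0.848). *Scd1*, the stearoyl-CoA desaturase, had a log2 fold change of 1.05 ± 0.37 (adjusted p = 0.113), and *Acaca*, acetyl-CoA carboxylase, one of 0.51 ± 0.16 (adjusted p = 0.0748, all edgeR). *Fgf21*, *Fasn*, *Scd1* and *Acaca* were named after their values were seen.

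Among 24 genes of ChREBP targets and sugar use, 2 rose and 2 fell (3.17% and 2.73% of all genes). *Pgd*, an enzyme of the pentose phosphate pathway, was 26.9 to 28.8 CPM on chow and 21.9 to 24.1 CPM on HF/HS (log2 fold change -0.28 ± 0.04) and *Tkt* went from a median of 112 to 90.8 CPM (-0.32 ± 0.07). *G6pdx* rose from 3.33 to 4.12 CPM on chow to 4.32 to 5.63 CPM on HF/HS (0.43 ± 0.09), a call lost with the replicate block described below. *Txnip* also rose (0.39 ± 0.10; lost in 9 of 23 alternative analyses, without KO chow 1 among them, adjusted p = 0.0646, edgeR). *Pklr*, the liver pyruvate kinase and a known ChREBP target, had a log2 fold change of 0.66 ± 0.21 (adjusted p = 0.0779, edgeR).

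Among 19 PPARG and lipid droplet genes, 2 rose and 1 fell (3.17% and 2.73% of all genes). *Mgll*, monoglyceride lipase (log2 fold change 0.36 ± 0.08), and *Ucp2*, a mitochondrial carrier (0.47 ± 0.11), rose, and *Pnpla2*, adipose triglyceride lipase, fell (-0.36 ± 0.09; lost in 10 of 23 alternative analyses). *Fabp5*, a fatty acid-binding protein on no list, had one of the largest rises of all genes. It was 6.29, 11.7 and 12.9 CPM on chow and 20.3, 33.3 and 61.8 CPM on HF/HS (1.75 ± 0.24, adjusted p = 0.00106, edgeR), without overlap.

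The 5 lipid and glucose genes given here from a liver qPCR panel did not pass the threshold. *Pparg*, the nuclear receptor of lipid storage, was 3.62, 4.38 and 5.62 CPM on chow and 2.71, 4.01 and 5.06 CPM on HF/HS (log2 fold change -0.19 ± 0.16, adjusted p = 0.519, edgeR). *Ppara* was 148, 220 and 263 CPM on chow and 235, 281 and 374 CPM on HF/HS (0.46 ± 0.13, adjusted p = 0.0527, edgeR) and passed in 6 of 23 alternative analyses. *Cd36*, a fatty acid transporter, had a log2 fold change of -0.36 ± 0.21 (adjusted p = 0.341, edgeR). *Pck1*, the gluconeogenic carboxykinase, varied widely within both diets, from 292 to 1635 CPM on chow and from 375 to 1790 CPM on HF/HS (0.06 ± 0.49, adjusted p = 0.960), and *Cpt2*, a carnitine palmitoyltransferase, hardly varied, from 188 to 237 CPM and from 195 to 216 CPM (-0.01 ± 0.06, adjusted p = 0.957, all edgeR).

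The HGF pathway is the one HGFAC is known to act in. Of 15 tested genes of HGF and MSP activation and their receptors, where 3.17% of all genes rose, only *Hgf* passed the threshold. It was 2.63, 3.60 and 6.57 CPM on chow and 4.96, 7.19 and 10.8 CPM on HF/HS, with overlap (log2 fold change 0.91 ± 0.24, adjusted p = 0.0411, edgeR), and its call was lost in 11 of 23 alternative analyses, without KO chow 1 among them (adjusted p = 0.0735). *Met*, the HGF receptor (named after its values were seen), was 46.1 to 74.6 CPM on chow and 71.7 to 101 CPM on HF/HS (0.29 ± 0.11, adjusted p = 0.123).

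Of 21 hepatokine and IGF-binding protein genes, 2 rose and 2 fell (3.17% and 2.73% of all genes). *Inhba*, an activin subunit, was 7.10 to 16.6 CPM on chow and 16.9 to 25.2 CPM on HF/HS, without overlap (log2 fold change 0.79 ± 0.17), and *Enho* also rose (0.64 ± 0.18; lost in 16 of 23 alternative analyses). *Tsku* (-0.96 ± 0.21) and *Fetub* (-0.38 ± 0.09; lost in 5 of 23, with an adjusted p of 0.0575 without KO chow 4, edgeR) fell. Among 23 apolipoprotein and lipoprotein genes *Apof* alone was called (0.25 ± 0.07; lost in 12 of 23 alternative analyses), which at 4.35% of the list is near the 3.17% of all genes that rose.

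All 3 fibrinogen chains rose. *Fga* was 2740 to 3703 CPM on chow and 3844 to 4587 CPM on HF/HS (log2 fold change 0.41 ± 0.08, adjusted p = 0.00660, edgeR), *Fgg* had a log2 fold change of 0.36 ± 0.07 and *Fgb* one of 0.36 ± 0.07. They were the only calls among 26 acute-phase genes, where 3.17% of all genes rose. In the fit of all 27 mice *Fga* and *Fgg* missed the threshold (adjusted p = 0.0718 and 0.0638, edgeR). The serum amyloid genes, named after their values were seen, depended on 1 mouse. KO chow 4 held 1279 CPM of *Saa1* and 764 CPM of *Saa2*, where the medians of the chow mice were 41.3 and 12.8 CPM. Their log2 fold changes of -2.19 and -3.11 (adjusted p = 0.258 and 0.163) became 0.61 and 0.51 without KO chow 4 (adjusted p = 0.566 and 0.613, all edgeR).

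Male-biased genes under growth hormone control were called in both directions. Of 27 tested, 4 rose and 2 fell (3.17% and 2.73% of all genes). Leaving out 1 mouse gave 3 to 5 higher and 1 to 3 lower, with 1 lower in most cases. The list median was 0.20, or 0.13 without KO chow 1, where 4 rose and 3 fell. KO chow 1 had the lowest score of this list among chow mice and the lowest *Hsd3b5* and *Cyp2u1*. *Hsd3b5*, a steroid dehydrogenase of male liver, went from 37.8 to 111 CPM on chow to 101 to 236 CPM on HF/HS (log2 fold change 1.21 ± 0.23), *Cyp2u1* from a median of 50.7 to 82.3 CPM (0.69 ± 0.15), and *Cyp4a12a*, a fatty acid hydroxylase, fell from 171 to 233 CPM to 82.6 to 148 CPM (-0.76 ± 0.13). Of 40 proliferation genes, 1 rose (2.5%) and 2 fell (5%), near the shares of all genes (3.17% and 2.73%). *Ccnd1*, cyclin D1, rose (0.74 ± 0.16), and *Tk1* (-0.68 ± 0.14) and *Mcm2* (-0.47 ± 0.12; lost in 5 of 23 alternative analyses) fell. No gene passed among 27 of endoplasmic reticulum folding, 19 of the circadian clock and 16 immediate early genes.

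Other genes with the largest or most even rises belong to no list. *Rgs16*, a regulator of G protein signaling, had the largest rise among called genes with a mean of at least 1 CPM, but on few counts and with wide spread. It was 0.0489 CPM in KO chow 1, 0.598 to 1.25 CPM in the other chow mice and 1.11 to 8.07 CPM on HF/HS (log2 fold change 2.20 ± 0.58, adjusted p = 0.0421, edgeR), and the call was lost in 15 of 22 alternative analyses, without KO chow 1 among them (adjusted p = 0.0522). *Ces4a*, a carboxylesterase, rose from 1.37 to 3.40 CPM on chow to 4.03 to 11.1 CPM on HF/HS (1.55 ± 0.23), and *Ttbk1*, a tau-tubulin kinase, from a median of 0.923 to 3.07 CPM (1.51 ± 0.32). *Fgd6*, an exchange factor for small GTPases, was 35.4 to 43.9 CPM on chow and 55.9 to 70.3 CPM on HF/HS (0.68 ± 0.07, adjusted p = 4.63e-05, edgeR).

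**Figure D4:**
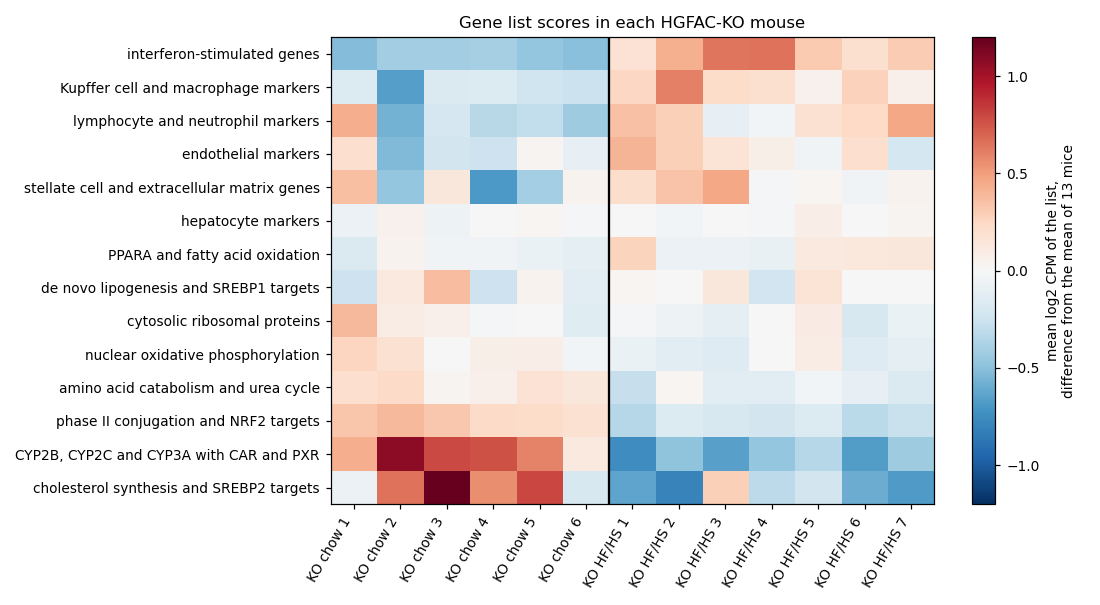
Scores of 14 gene lists in each HGFAC-KO mouse, as the mean log2 CPM of the tested members minus the mean of the 13 mice (red higher, blue lower). The vertical line parts the 6 chow mice from the 7 HF/HS mice. Interferon, macrophage, amino acid, phase II and P450 lists change at that line, while the cholesterol list varies within both diets.

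The same diet comparison was made in the littermate controls, in a separate fit. There 667 of 13525 genes were higher on HF/HS (4.93%) and 757 lower (5.60%). Of the 431 genes higher in HGFAC-KO mice, 427 were tested in controls, 424 had the same sign and 185 were also called, which is 42.9% of the HGFAC-KO list and 27.7% of the control list. Of the 371 lower genes, 370 were tested, 367 had the same sign and 242 were also called, 65.2% and 32.0% of the lists. No gene was called in opposite directions.

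The leading groups had medians of the same sign in both genotypes. In controls 31 of 36 interferon-stimulated genes rose (median log2 fold change 0.86, against 0.88 in HGFAC-KO mice) and 15 of 26 cholesterol genes fell (-0.76 against -1.01). Of the P450 list 13 of 25 fell (-0.53 against -0.60), and of the phase II list 26 of 45 fell (-0.46 against -0.36). *Cyp3a11* had log2 fold changes of -3.24 ± 0.19 in controls and -3.06 ± 0.16 in HGFAC-KO mice.

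Other lists differed more in their counts. In controls 14 of 36 PPARA genes rose (median 0.13) against 1 in HGFAC-KO mice (0.10), and 1 of 24 macrophage markers rose (0.27) against 10 of 25 (0.50). Over all genes 4.93% rose and 5.60% fell in controls, and 3.17% rose and 2.73% fell in HGFAC-KO mice. Whether these counts differ by genotype is a question for the interaction of genotype and diet, not for the counts. Of the tested members, 1 PPARA gene and no macrophage marker was below 0.05 for this interaction before adjustment, and *Cd74* (adjusted p = 0.984, edgeR) was the 1 lymphocyte or neutrophil marker that was. The lists with the most members below 0.05, picked here for that count, were proliferation (9 of 41), nuclear oxidative phosphorylation (8 of 52), acute-phase proteins (5 of 26), ribosomal proteins (5 of 79) and gluconeogenesis (4 of 22), beside 506 of all 13932 genes. The median log2 fold change of proliferation genes was -0.30 in controls, where 6 fell and 1 rose, and 0.10 in HGFAC-KO mice, where 2 fell and 1 rose. That of acute-phase genes was 0.35 in controls and -0.04 in HGFAC-KO mice, or 0.25 without KO chow 4.

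Over all 27 mice, no gene of 13932 passed the threshold for this interaction (0%; the 506 above had an unadjusted p under 0.05, edgeR). DESeq2 and limma voom also called none, with 543 and 513 genes at an unadjusted p under 0.05. The smallest p was that of *Apoa1*, the main protein of HDL (adjusted p = 0.980, edgeR), whose log2 fold change was -0.07 ± 0.09 in HGFAC-KO mice and 0.39 ± 0.05 in controls. *Lrrc8b*, a volume-regulated channel subunit (0.92 against -0.61), *Racgap1*, a cytokinesis factor (0.50 against -0.71), and *Tmem254c* (1.12 against -1.03) followed. These 3 lay near or below 1 CPM in all HGFAC-KO mice. *Iqgap3*, also among the 5 smallest, was too low to be tested within HGFAC-KO mice. An absence of calls does not show that the genotypes responded alike.

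**Figure D5:**
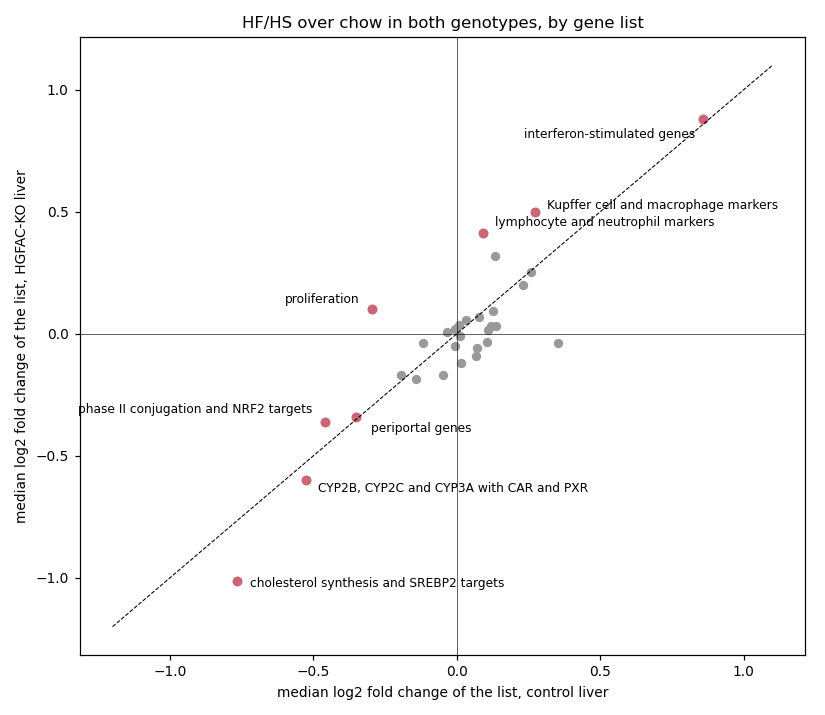
Median log2 fold change (HF/HS over chow) of each gene list with at least 10 tested members, in control liver (horizontal) and HGFAC-KO liver (vertical), with the dashed line marking equal values. The interferon list (0.86 and 0.88) and the cholesterol list (-0.76 and -1.01) lie at the ends, the interferon list close to the line and the cholesterol list below it.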

How the data were processed

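Total RNA from snap-frozen liver was poly(A)-selected, made into stranded libraries and sequenced as 50 bp paired-end reads. The authors aligned reads to GRCm38 with HISAT2 and deposited counts per gene from featureCounts (version 1.6.3 per the labels), without normalization. How reads shared between similar genes were assigned is not given in the sources used here. Of 27179 rows, 3886 name no gene and were left out (4.13% to 12.1% of the counts of an HGFAC-KO library), and 191 rows of 89 repeated symbols were summed.

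The gene test was the quasi-likelihood test of edgeR 4.0.16 under R 4.3.3 (TMM, filterByExpr with minimum count 10 and total 15, robust fit, Benjamini-Hochberg adjustment, threshold 0.05), separately in HGFAC-KO mice and controls, and for the interaction over all 27 mice. The SE is the log2 fold change divided by the square root of F. CPM use the TMM-scaled library sizes of each fit. Permutation tests of single genes were exact and two-sided on log2 CPM with a prior count of 2. They were not adjusted, and they used the same mice by which the genes were named, so they are no separate support. The test used by the authors is not given in the sources used here.

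The comparison and the 34 gene lists were chosen with earlier results of these data known. Named genes are *Hgfac*, the 10 largest rises and falls (mean of at least 1 CPM, no clone names), the 10 smallest p-values, up to 3 members of each list by p, the genes of a liver qPCR panel and the 5 smallest interaction p-values. A few of them are not reported here. Others are marked as named after their values were seen, which includes list members given only with a log2 fold change. Alternatives were DESeq2 1.42.0, limma 3.58.1 voom with and without library quality weights, other normalizations and filters, all 27 mice in 1 fit, a replicate block and leaving out each mouse. Leaving out KO chow 1 and KO chow 4 together was added after seeing the data. Fits were tested on simulated data. Promoters are from RefSeq (GRCm38.p6).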

Additional observations from a re-analysis of the deposited data

Results flagged for a closer look

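In 176 groups of mice for the named genes reported here, 10 held a mouse far from the others of its diet by Dixon's ratio, where chance gives about 1 in 20. Of these, 4 came from KO chow 1. That mouse held 0.0489 CPM of *Rgs16* (others 0.598 to 1.25), 30.9 CPM of *Cyp2a4* (others 0.390 to 0.832), 259 CPM of *Mdh2* (others 221 to 232) and 7.93 CPM of *Abcc4* (others 2.82 to 3.88). KO chow 6 held 6.29 CPM of *Fabp5* (others 10.7 to 12.9), and KO chow 2 held 3.88 CPM of *Ptprc* (others 6.02 to 7.44). On HF/HS, KO HF/HS 2 held 2.16 CPM of *Abcc4* (others 1.57 to 1.80), 1812 CPM of *Ass1* (others 1171 to 1357) and 1.05 CPM of *Racgap1* (others 0.470 to 0.592), and KO HF/HS 3 held 14.9 CPM of *Rdh11* (others 11.3 to 12.7).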

How the results depend on the processing

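No gene called in HGFAC-KO mice changed direction in any alternative in which it was tested. DESeq2 called 726 higher and 675 lower genes, voom with library quality weights 631 and 597, and the fit of all 27 mice 588 and 575. Leaving out 1 mouse gave 267 to 461 higher and 200 to 497 lower genes, and leaving out both KO chow 1 and KO chow 4, chosen after seeing the data, 383 and 276. The cause of these shifts was not tested. The interaction had 0 calls in every alternative run (353 to 948 genes at an unadjusted p under 0.05). Depth limits genes below about 1 CPM, such as *Cyp3a41a*.

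Replicate numbers did not pair the mice: correlations of same-numbered mice ran from -0.150 to 0.289, and 2 of 6 chow mice correlated best with their own number. With the replicate block (KO HF/HS 7 left out) 313 genes were higher and 289 lower, 264 and 240 of them called without it, 6 of 25 macrophage markers rose, *Cd5l* missed the threshold (adjusted p = 0.0869, edgeR), and the interaction had 0 calls (474 at an unadjusted p under 0.05).

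Values that changed sign belong to genes that did not pass the threshold. The log2 fold change of *Pck1* (0.06) was -0.06, -0.12, -0.05 and -0.11 without KO chow 2, 3, 5 and 6, and ran from -0.27 (without KO HF/HS 5) to 0.41 when 1 mouse was left out, but was 1.07 without both KO chow 1 and KO chow 4 (adjusted p = 0.163, edgeR). That of *Cpt2* (-0.0072) was 0.0057 without KO chow 3 and 0.0048 without KO HF/HS 3, in a range of -0.033 to 0.034 (without KO chow 2). That of *Fasn* (-0.12) was 0.016 with voom, 0.021 with the replicate block and between -0.27 and 0.23 (without KO chow 3) leaving out 1 mouse. *Nr1i2* (0.06) ran from -0.0082 (without KO chow 6) to 0.12 and *Cps1* (-0.06) from -0.17 (without KO chow 1) to 0.0046 (without KO chow 5) leaving out 1 mouse and was -0.19 without both KO chow 1 and KO chow 4. *Saa2* (-3.11) ran from -3.76 to 0.51 and *Saa1* (-2.19) from -2.94 to 0.61, both highest without KO chow 4, and gave 0.45 and 0.50 without both KO chow 1 and KO chow 4.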
